A study of Homo sapiens with 4 samples.

Results

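CDC20, AURKA, AURKB, PLK1, UBE2C, TOP2A, MKI67, BUB1, BIRC5 and FOXM1 are 10 genes of mitotic control and proliferation. They were chosen by gene symbol, with earlier results of these data known. Each had 1 target among the 20322 targets of the deposited table. HT-29, from which all libraries were made, is a line of human colorectal adenocarcinoma cells. In all 4 libraries IMP1, an RNA-binding protein encoded by IGF2BP1, had been deleted with CRISPR/Cas9, and the cells carried a PiggyBac vector, a transposon that inserts its cargo into the genome. The vector was empty (PB*-empty) in the 2 null libraries and carried FLAG-tagged IMP1 with a short UTR (PB*-FLAG-IMP1-short UTR) in the 2 IMP1-OE libraries. The labels give a mouse liver metastasis as the origin of the tumour-derived cells, which were kept in puromycin. Per the design text there were 2 lines per genotype. No label says whether replicates were separate clones or cultures, so p-values measure only the spread between these libraries, which may be technical.

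Mitosis is driven by kinases that are made in late S and G2 phase and by an ubiquitin ligase, the anaphase-promoting complex (APC/C), that destroys many of the same proteins as cells divide. The transcription factor FOXM1, with B-MYB and the MuvB complex, switches on most of these genes shortly before mitosis, so their mRNAs are used as markers of dividing cells in tumours, colorectal ones included. In bulk RNA, a larger share of dividing cells and more RNA per dividing cell cannot be told apart.

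MuvB reaches promoters through the cell cycle homology region (CHR), with the core letters TTTGAA or TTCGAA, and the promoters of this class often hold CCAAT boxes as well. RefSeq promoter windows (GRCh38.p14, 250 bases before to 50 after the gene start) matched 6 of the 10 genes by symbol, as 7 windows, because AURKB has 2. AURKA, UBE2C, BIRC5 and FOXM1 are named only. A CHR core stood on either strand in 5 of the 7 windows, against 16.4% of all 35116 windows, and a CCAAT box (CCAAT or its reverse complement ATTGG) in 7 of 7 against 34.6%. TTCGAA reads the same on both strands. The stretches printed here are shown because they hold the core that genes higher and lower in IMP1-OE had in common. Each has 30 bases, 5′ to 3′ on the gene's strand, with the CHR core in capitals, and positions are counted from the gene start, with 1 as its first base and the core's first base as its position.
CDC20 (chr1:43358904-43358933, plus strand, core at -65): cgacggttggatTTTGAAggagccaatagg
PLK1 (chr16:23678848-23678877, plus strand, core at -29): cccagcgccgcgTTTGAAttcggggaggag
BUB1 (chr2:110678045-110678074, minus strand, core at 2): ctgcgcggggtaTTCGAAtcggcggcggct
TOP2A (chr17:40418073-40418102, minus strand, core at -194): cgagtggtgcctTTTGAAgcctctctagtc
MKI67 (chr10:128126444-128126473, minus strand, cores at -47 and -29): gaaTTTGAAtcttcgttttcgTTTGAAttg
In MKI67 the core at -29 shared its last base with a CCAAT box on the opposite strand at -24. CDC20 held a further core at -178 and TOP2A one at -151, both on the opposite strand. Both AURKB windows lacked these letters. A match describes the letters and was not tested as a binding site.

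Library totals ran from 9343429 to 10594813 estimated counts, and a count of 0 allows up to 3 counts, or 0.285 to 0.328 CPM (counts relative to the scaled library total), per library. The 2 null libraries differed more from each other than the 2 IMP1-OE libraries did (chi-square per degree of freedom 55.3 against 19.2). IGF2BP1 had 37 and 16 counts in null and 71 and 112 in IMP1-OE, in the order of the labels (edgeR adjusted p = 0.453). The epithelial genes KRT8 and EPCAM were abundant, with KRT8 at 9484 to 12826 CPM. Of the intestinal genes, KRT20 had 344 to 585 CPM and VIL1 had 107 to 212 CPM. CDX2 and CDH17 reached at most 4.60 and 12.3 CPM, both in null replicate 1. Of the hepatocyte genes, ALB, APOA1 and CYP3A4 had no count in any library. Fibroblast marker genes summed to 2.52 to 13.1 CPM in null and 2.09 to 6.28 CPM in IMP1-OE, endothelial ones to 2.35 to 2.95 and 3.14 to 4.09 CPM, and hepatocyte ones to at most 0.285 CPM. The 4 leukocyte markers summed to 1394 to 2815 CPM in null and 1748 to 1896 CPM in IMP1-OE. Nearly all of that was LYZ, the lysozyme gene, at 1378 to 2798 CPM over the 4 libraries, while CD68 had 6.08 to 17.0 CPM, PTPRC at most 0.475 CPM and CD3E no count. The targets were human, so low counts of these markers cannot show whether cells of the mouse host were present. The part of these markers in the results was not tested.

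Of the 10 genes, 9 were higher in IMP1-OE, and in each of these 9 both IMP1-OE libraries stood above both null libraries. MKI67 was the exception: it was lower, again without overlap. Over all 12113 genes tested, 48.1% were higher, 21.3% were higher without overlap and 21.9% lower without overlap. The median log2 fold change (IMP1-OE over null) was 0.60 for the 10 genes and -0.02 over all genes. Together the 10 genes took 0.143% of the counts in each null library and 0.200% and 0.204% in the IMP1-OE libraries. ARSI, a sulfatase gene, alone took 17.8% and 17.3% of the counts in null and 8.01% and 12.4% in IMP1-OE, and with it left out the shares of the 10 genes were 0.174%, 0.173%, 0.217% and 0.233%. The edgeR quasi-likelihood test with Benjamini-Hochberg adjustment over all genes called none of the 10 at 0.05, as it called 0% of all genes. At an unadjusted p under 0.05, 8 of the 10 were higher and 0 lower, where 4.34% of all genes were higher. As the 10 genes were chosen with earlier results of these data known, these counts are a description and no test. At an adjusted p of 0.05, DESeq2 called 1 of the 10 and 1.28% of all genes, limma-voom 0 of the 10 and 0.00826%, and the edgeR likelihood ratio test 0 of the 10 and 1.28%. edgeR also called 0 of the 10 without a low-count filter (0.129% of all genes) and with at least 10 counts required in each library (0.00913%).

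**Figure D1:**
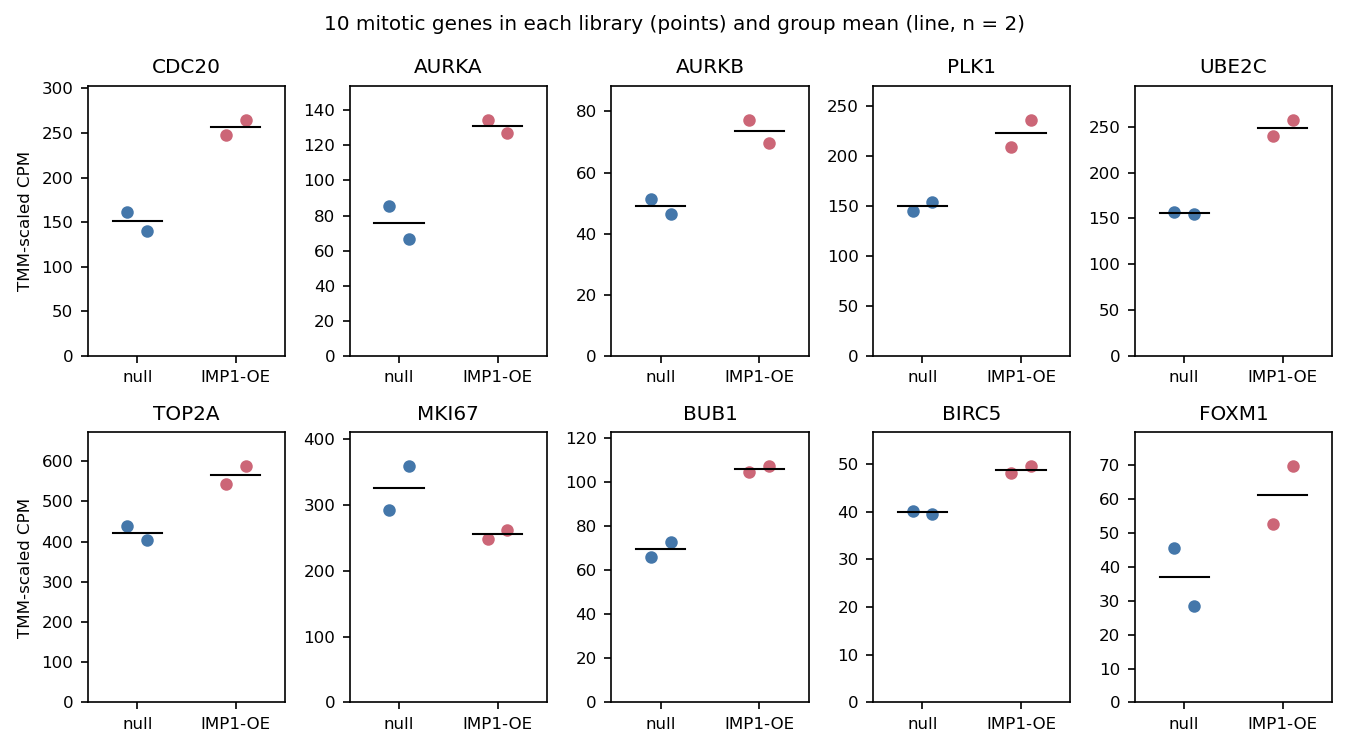
TMM-scaled CPM of each of the 10 genes (vertical axis, from 0) in the 2 null and 2 IMP1-OE libraries (points, replicate 1 left of replicate 2), with the group mean as a line. All genes but MKI67 have both IMP1-OE points above both null points, and MKI67 has them below.

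CDC20 and UBE2C serve the APC/C. CDC20 is the coactivator that brings substrates to the complex at the start of anaphase, and UBE2C is the enzyme that hands it the first ubiquitin. CDC20 stood at 162 and 140 CPM in the null libraries and at 248 and 265 CPM in the IMP1-OE libraries. UBE2C stood at 157 and 155 CPM in null and at 240 and 258 CPM in IMP1-OE. In both genes the groups did not overlap. The null replicates of CDC20 lay 1.15-fold apart (95% exact binomial interval 1.07 to 1.24, counting error only), and those of UBE2C 1.01-fold. CDC20 was 1.70-fold higher (95% interval 1.27 to 2.28, edgeR adjusted p = 0.433), and UBE2C 1.59-fold higher (1.21 to 2.10, edgeR adjusted p = 0.433). In the authors' deposited table CDC20 is the only one of the 10 genes below 0.05 (adjusted p 0.0300), and UBE2C has 0.0566. There 1.28% of genes are called in either direction and 0.428% higher. DESeq2 as run here called the same 164 genes, so its calls are not a separate result from those of the authors. The ratio of CDC20 to UBE2C counts was 1.03 and 0.903 in null and 1.03 and 1.03 in IMP1-OE. Null replicate 2 was the low one, and the groups overlapped.

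AURKA, AURKB and PLK1 encode mitotic kinases. Aurora A acts at centrosomes and spindle poles, Aurora B at centromeres and the midzone, and PLK1 at all of these sites from mitotic entry to cytokinesis. AURKA stood at 85.4 and 66.4 CPM in null and at 135 and 127 CPM in IMP1-OE, the largest fold of the 10 genes at 1.72 (95% interval 1.23 to 2.41, edgeR adjusted p = 0.435). AURKB stood at 51.4 and 46.5 CPM in null and at 77.3 and 69.7 CPM in IMP1-OE, 1.50-fold higher (1.10 to 2.05, edgeR adjusted p = 0.451). PLK1 stood at 145 and 154 CPM in null and at 209 and 236 CPM in IMP1-OE, 1.49-fold higher (1.12 to 1.98, edgeR adjusted p = 0.446). All 3 kinase mRNAs had non-overlapping groups, and AURKA differed most between the null libraries, where replicate 1 was 1.29-fold above replicate 2 (95% exact binomial interval 1.16 to 1.43, counting error only). The ratio of AURKA to AURKB counts was 1.66 and 1.43 in null and 1.74 and 1.83 in IMP1-OE.

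BUB1 and BIRC5 act at centromeres. BUB1 is a spindle checkpoint kinase that also marks the centromere for Aurora B. BIRC5 encodes survivin, which docks the chromosomal passenger complex of Aurora B there. BUB1 stood at 66.2 and 72.8 CPM in null and at 105 and 107 CPM in IMP1-OE, 1.53-fold higher (95% interval 1.14 to 2.04, edgeR adjusted p = 0.435). BIRC5 stood at 40.2 and 39.5 CPM in null and at 48.1 and 49.5 CPM in IMP1-OE, 1.22-fold higher (0.900 to 1.66, edgeR adjusted p = 0.621). BIRC5 had the smallest fold of the 9 higher genes, although its replicates lay within 1.03-fold of each other in both groups. It was also the only one of the 9 whose interval included 1. AURKB counts were 1.28 and 1.18 times BIRC5 counts in null and 1.61 and 1.41 times in IMP1-OE, without overlap. The ratio of PLK1 to BUB1 counts overlapped, at 2.19 and 2.12 in null and 1.99 and 2.20 in IMP1-OE. That of TOP2A to FOXM1 counts overlapped as well, at 9.64 and 14.2 in null and 10.3 and 8.42 in IMP1-OE. None of these ratios was tested.

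FOXM1 and TOP2A act in the nucleus before and during division. FOXM1 is the forkhead factor that drives G2 and mitotic genes, and TOP2A is the topoisomerase that untangles sister chromatids. FOXM1 stood at 45.6 and 28.6 CPM in null and at 52.6 and 69.8 CPM in IMP1-OE. It had the widest spread of the 10 genes within both groups, with null replicate 1 at 1.60 times replicate 2 (95% exact binomial interval 1.37 to 1.86). FOXM1 was 1.65-fold higher in IMP1-OE (95% interval 1.01 to 2.70, edgeR adjusted p = 0.485). Its log2 fold change was 0.72, and leaving out null replicate 1 gave 1.10 and leaving out null replicate 2 gave 0.43. TOP2A stood at 439 and 404 CPM in null and at 543 and 587 CPM in IMP1-OE, 1.34-fold higher (1.02 to 1.77, edgeR adjusted p = 0.475).

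MKI67 encodes the nuclear antigen that coats mitotic chromosomes and is stained in tumour sections to count cycling cells. It stood at 293 and 359 CPM in null and at 248 and 263 CPM in IMP1-OE. The IMP1-OE libraries were close together and both lay below the null libraries, which differed by 1.23-fold. MKI67 was 1.28-fold lower in IMP1-OE, with a log2 fold change of -0.35 (95% interval -0.79 to 0.09, unadjusted p = 0.0995, edgeR adjusted p = 0.553). It did not reach the threshold. Over the 14 alternative settings tried its log2 fold change ran from -0.49 (without null replicate 1) to -0.20 (without null replicate 2). The intervals of 6 of the other genes lay wholly above that of MKI67. MKI67 was set against them because it was the exception in these data, so this is a description.

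**Figure D2:**
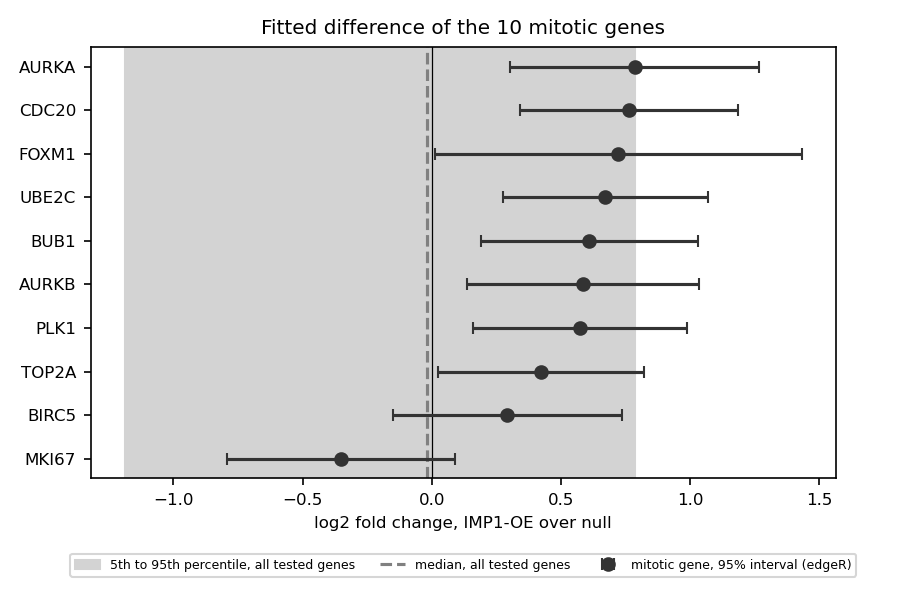
Log2 fold change (horizontal axis, IMP1-OE over null) of the 10 genes with 95% intervals from edgeR, beside the 5th to 95th percentile of all tested genes (grey band, -1.19 to 0.79) and their median (dashed line). The intervals of 8 genes lie above 0, and those of BIRC5 and MKI67 include it.

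Ratios of counts within a library do not depend on how libraries are scaled, so the other 9 genes were set against MKI67. MKI67 was taken as the denominator because it was the exception, and all 9 ratios share it. Since MKI67 was lower and the others higher without overlap, the ratios had to separate the groups, and they are given as sizes with no test. MKI67 made up 19.7% and 24.5% of the counts of the 10 genes in null and 13.0% and 12.9% in IMP1-OE, with exact (Clopper-Pearson) 95% intervals no wider than 23.8% to 25.2%, for counting error only. CDC20 had 0.552 and 0.391 counts for each MKI67 count in null and 0.998 and 1.01 in IMP1-OE, a 2.16-fold difference. TOP2A had 1.50 and 1.13 in null and 2.19 and 2.23 in IMP1-OE, a 1.70-fold difference. BIRC5 showed the smallest difference of the 9 at 1.55-fold and AURKA the largest at 2.21-fold.

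**Figure D3:**
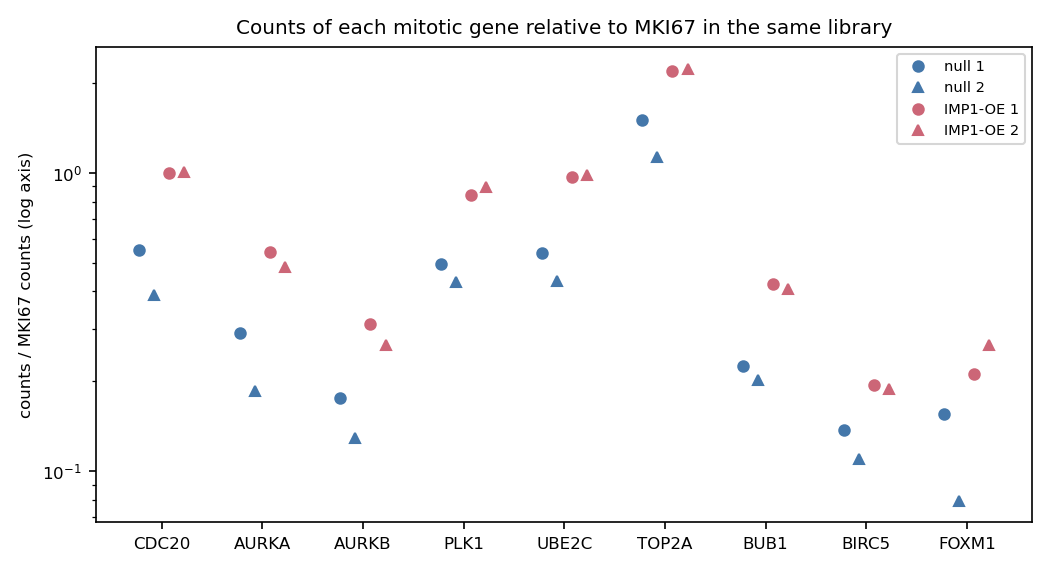
Counts of each of the other 9 genes divided by MKI67 counts in the same library (vertical axis, log scale), for null (blue) and IMP1-OE (red), replicate 1 as circles and replicate 2 as triangles. The groups, whose separation follows from the choice of denominator, lie 1.55-fold (BIRC5) to 2.21-fold (AURKA) apart by geometric mean.

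Levels between genes were compared as the authors' TPM, a transcript level that divides by target length. In null the order ran from UBE2C at 377 ± 8.14 TPM (mean ± SD, n = 2), CDC20 at 169 ± 11.9, TOP2A at 135 ± 3.89, PLK1 at 128 ± 9.03, AURKB at 73.0 ± 3.01, AURKA at 64.9 ± 9.54, MKI67 at 46.9 ± 8.10, BUB1 at 33.9 ± 3.27 and BIRC5 at 28.4 ± 0.505 down to FOXM1 at 19.0 ± 5.63 TPM. Neighbours overlapped for TOP2A with PLK1 and for AURKB with AURKA. In IMP1-OE, UBE2C led at 611 ± 22.9 TPM and CDC20 followed at 292 ± 10.4, and MKI67 at 37.3 ± 1.08 TPM stood below BUB1 at 52.5 ± 0.264 TPM. That swap of MKI67 and BUB1 was the only change of order between neighbours that did not overlap within either group. The length matters for MKI67: its target has 12716 nt against 777 nt for UBE2C, so MKI67 exceeded UBE2C in null by CPM but not by TPM.

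At unchanged scaling, leaving out a library cannot turn the direction of a gene whose groups do not overlap. The remaining libraries were rescaled each time, and 9 of the 10 genes stayed higher. Leaving out a library did change which genes were called. Without null replicate 1, edgeR called CDC20 (adjusted p = 0.0306, log2 fold change 0.87) and AURKA (adjusted p = 0.0283, log2 fold change 0.98), where 6.46% of all genes were called. Without null replicate 2 it called 0 of the 10 and 0.396% of all genes. Without IMP1-OE replicate 1 or replicate 2 it called none, and 1 of the 10 genes had an unadjusted p under 0.05 in each case, where 1.32% and 0.768% of all genes were higher at that p.

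**Figure D4:**
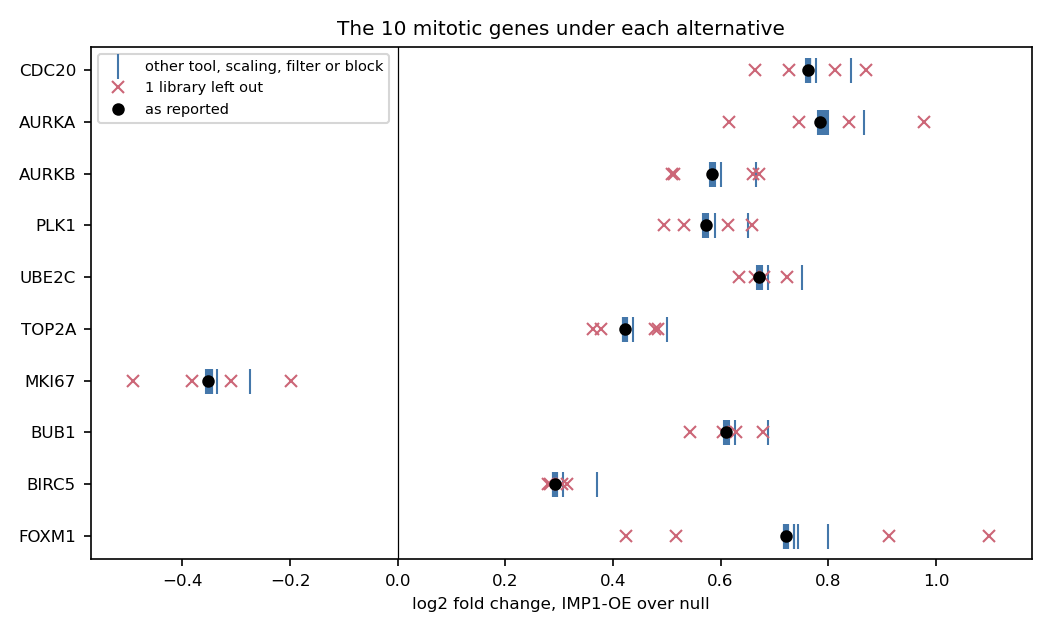
Log2 fold change (horizontal axis, IMP1-OE over null) of the 10 genes as reported (black points), with other tools, scalings, filters or the replicate block (blue bars), and with 1 library left out (red crosses). FOXM1 moves most, from 0.43 to 1.10.

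The other genes of mitotic control were taken from 9 lists of 119 genes, of which 118 were tested and GAS1 was not. The lists too were chosen with earlier results of these data known, so their counts are a description. Outside the growth arrest list, 83 of 107 were higher, with a median log2 fold change of 0.31 against -0.02 over all genes, and 22 were higher and 4 lower at an unadjusted p under 0.05, where 4.34% and 5.84% of all genes were. With all 4 libraries, none passed an adjusted p of 0.05 in the edgeR quasi-likelihood test on any list. DESeq2 called 2 of the 119 (PLK2 and BTG2), near its 1.28% of all genes, and limma-voom called 0. The edgeR likelihood ratio test called the same 2 genes, where it called 1.28% of all genes. Each list gene named here had an adjusted p of at least 0.408 in the edgeR quasi-likelihood test.

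All 6 cytokinesis genes were higher without overlap, with a median of 0.52, where 21.3% of all genes were higher without overlap. RACGAP1, a centralspindlin subunit, had 84.0 ± 21.6 CPM in null and 150 ± 14.5 CPM in IMP1-OE (mean ± SD, n = 2). In the same order of IMP1-OE against null, the abscission gene CEP55 stood at 61.4 ± 4.96 against 38.2 ± 1.72 CPM and the midzone bundler PRC1 at 303 ± 14.8 against 212 ± 27.4 CPM. All 11 genes of condensins and chromosome structure were higher (median 0.43), 9 without overlap against the same 21.3%. NCAPG2, of condensin II, stood at 148 ± 6.44 against 91.3 ± 8.63 CPM, and NCAPG and NCAPD2, of condensin I, at 92.8 ± 6.06 against 57.8 ± 1.62 CPM and 357 ± 26.6 against 236 ± 46.8 CPM. Of the other G2/M markers 13 of 18 were higher (median 0.44), among them HMMR at 50.1 ± 1.86 against 28.3 ± 4.84 CPM and GTSE1 at 41.7 ± 3.13 against 25.4 ± 3.48 CPM. MELK, a kinase gene often listed with proliferation markers, was lower, as MKI67 was, at 22.0 ± 1.26 against 38.1 ± 3.92 CPM.

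Among partners of the 10 genes, 14 of 15 spindle checkpoint genes were higher (median 0.31). SGO2, a shugoshin that guards centromeric cohesin, stood at 16.2 ± 1.29 against 7.49 ± 1.16 CPM, the checkpoint kinase TTK at 49.3 ± 3.73 against 28.5 ± 7.31 CPM and the ATPase TRIP13 at 75.3 ± 4.04 against 53.1 ± 1.19 CPM. Of the Aurora and Polo partners 7 of 10 were higher (median 0.29). INCENP, the scaffold that holds Aurora B and survivin, stood at 174 ± 13.2 against 123 ± 3.92 CPM, and PLK2, a relative of PLK1 with roles at centrioles, at 450.0 ± 33.5 against 216 ± 34.8 CPM (adjusted p 0.000463 in the authors' deposited table). AJUBA, whose LIM protein activates Aurora A, was lower at 12.2 ± 2.34 against 26.6 ± 0.664 CPM. APC/C subunits and helpers were higher in 12 of 17 (median 0.22, and 0.13 without null replicate 2), with 0 higher and 1 lower at an unadjusted p under 0.05, near the 5.84% of all genes lower at that p. The lower one was the RING subunit gene ANAPC11 at 44.8 ± 0.910 against 64.9 ± 3.40 CPM. The subunit genes CDC27 and CDC23 stood at 36.5 ± 0.576 against 26.2 ± 4.05 CPM and 21.7 ± 0.453 against 15.4 ± 3.09 CPM.

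Mitotic entry and exit genes were higher in 8 of 12 (median 0.25). Leaving out null replicate 1 gave a median of 0.14, null replicate 2 0.13 and IMP1-OE replicate 1 0.16. Securin (PTTG1) stood at 105 ± 11.8 against 71.0 ± 21.3 CPM, the phosphatase gene CDC25A at 27.8 ± 2.04 against 18.3 ± 5.42 CPM, and PPP2R2A, a regulatory subunit of PP2A, lower at 21.0 ± 0.622 against 36.7 ± 15.9 CPM. The factors that act with or upstream of FOXM1 lay closer to the median of all genes: 12 of 18 MuvB, MYB, E2F and RB genes were higher, with a median of 0.08 that turned to -0.0085 without IMP1-OE replicate 1 and was 0.16 without null replicate 1. MYBL2, the gene of B-MYB, stood at 98.9 ± 12.4 against 63.3 ± 7.76 CPM and TFDP1, the partner of E2F proteins, at 108 ± 12.4 against 67.5 ± 12.5 CPM. LIN37, a MuvB subunit, was near the floor in IMP1-OE, at 0.571 ± 0.404 against 2.83 ± 0.287 CPM.

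Growth arrest genes were lower in 10 of the 11 tested, with a median log2 fold change of -0.55, and 5 were lower without overlap, where 21.9% of all genes were. BTG2, an antiproliferative gene, stood at 22.8 and 38.2 CPM in null and at 11.6 and 6.84 CPM in IMP1-OE (edgeR adjusted p = 0.433, and 0.0233 in the authors' deposited table). The inhibitor genes CDKN1C and CDKN2B were lower at 2.33 ± 0.0691 against 7.29 ± 3.66 CPM and 2.71 ± 0.738 against 6.58 ± 2.03 CPM. TOB1 was the one higher gene of this list, at 39.8 ± 13.0 against 34.6 ± 4.34 CPM, and it is named because it was the exception.

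**Figure D5:**
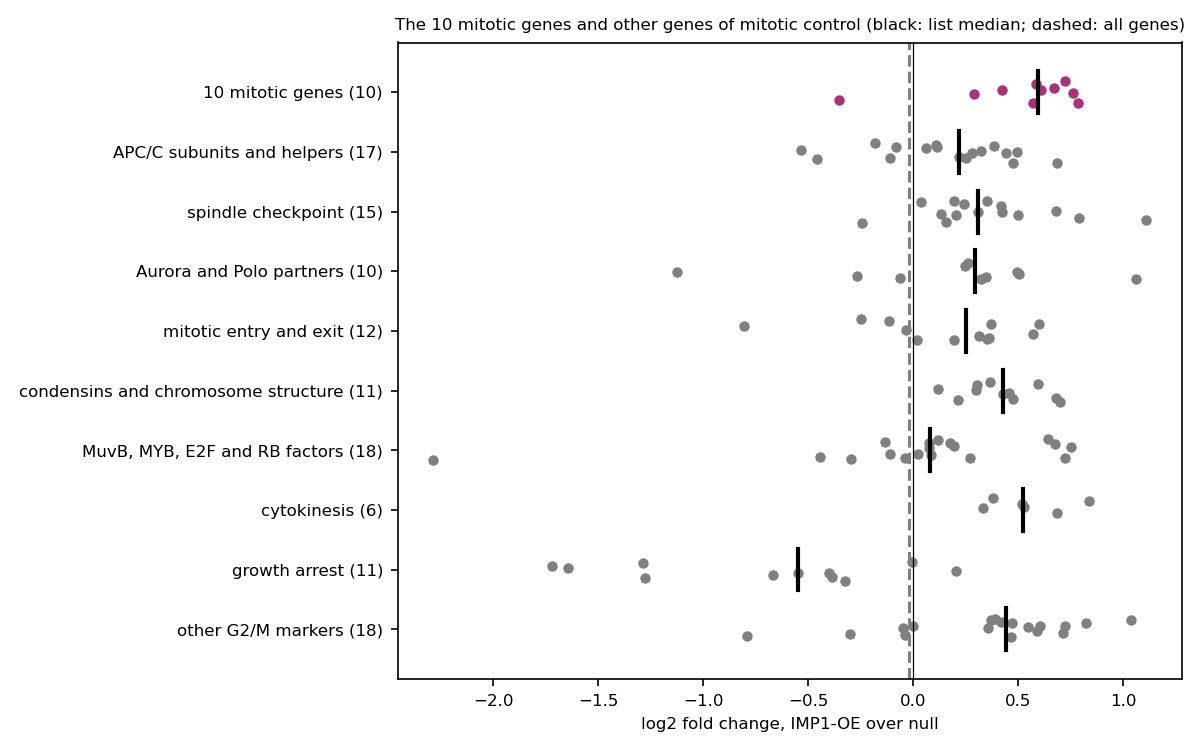
Log2 fold change (horizontal axis, IMP1-OE over null) of each tested gene by list, with the number tested in parentheses, the list median as a black bar and the median of all tested genes as a dashed line. The 10 genes lie at 0.60 by median, cytokinesis genes at 0.52 and growth arrest genes at -0.55.

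In the promoter windows of the same lists, a CHR core stood in 6 of 6 windows of cytokinesis genes, 9 of 15 of spindle checkpoint genes, 9 of 15 of other G2/M markers and 8 of 15 of condensin and chromosome structure genes. It stood in 7 of 19 windows of mitotic entry and exit genes, 5 of 12 of Aurora and Polo partners, 8 of 25 of MuvB, MYB, E2F and RB genes, 5 of 30 of APC/C genes and 1 of 12 of growth arrest genes. Over all 35116 windows the share was 16.4%, and that of APC/C genes, at 16.7%, was near it. The shares of the lists are a description of letters and, as a gene can have several windows, are not counts of genes.

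The genes outside the 10 whose profile over the 4 libraries was nearest to the median profile of the 10 were TUBGCP4, TSR1, IPO7, DSCC1 and TCP1, by root mean square distance of centred log2 CPM (0.0154 to 0.0291) among 6368 genes with a mean of at least 20 CPM. IPO7, for example, stood at 262 and 250 CPM in null and at 362 and 394 CPM in IMP1-OE. Of the 10 genes themselves UBE2C lay nearest to that median, with 62 of the 6368 genes nearer, and MKI67 farthest, with 4967 nearer. Over 4 libraries this likeness is a description only.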

How the data were processed

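RNA fragments of 4 HT-29 libraries were sequenced by the submitters. Per the submitters' processing notes, the tools were kallisto 0.46.2, HISAT2 2.1.0, fastp 0.21, Cutadapt 3.5 and DESeq, with no role stated. The genome build was not given in the sources used here. Per the file headers, the authors deposited estimated counts and TPM per target. The TPM column stacks all libraries and was treated as a signal. The strand setting and any removal of PCR copies by molecular identifiers were likewise not given. The deposited table also holds 2 sample names that match no label, left out here. Per the file headers, a further table holds the authors' own log2 fold changes and p-values and, as a signal, mean normalized counts.

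Estimated counts were whole numbers. They were tested with edgeR 4.0.16 (R 4.3.3): TMM scaling, default low-count filter (12113 genes), quasi-likelihood F test of IMP1-OE against null without covariates, Benjamini-Hochberg adjustment, threshold 0.05. CPM are TMM-scaled. Alternatives were limma 3.58.1 (voom), DESeq2 1.42.0, the likelihood ratio test, changed scaling or filters, a replicate block and omission of each library. The steps were also run on simulated data, but only with differences larger than those of the 10 genes. That run therefore does not speak to differences of their size. The 10 genes and all lists were chosen with earlier results of these data known. Named by rule besides the 10 genes are IGF2BP1, the 3 genes of each list with the smallest p and the 5 nearest profiles. TOB1, GAS1, ARSI and the cell type markers printed fall outside that rule and were named after their values were seen.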

Additional observations from a re-analysis of the deposited data

How the results depend on the processing

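In each of the 10 alternatives that kept all 4 libraries, 9 of the 10 genes were higher and 10 did not overlap. Leaving out a library could not have changed this at unchanged scaling, and with the remaining libraries rescaled it did not. The likelihood ratio test, limma-voom and the replicate block used the same CPM as reported, so their overlap was fixed in advance. Their median log2 fold change was 0.60 as reported, 0.68 with library totals alone, and 0.56 to 0.64 with 1 library left out. The count of the 10 genes called was 1 with DESeq2 (CDC20), 0 to 2 with 1 library left out, and 0 with the other alternatives, as reported. The count of all genes called was 0 as reported, 164 with DESeq2, 155 with the edgeR likelihood ratio test, 1 with limma-voom, 22 without a low-count filter, 1 with at least 10 counts in each library, and 0 to 783 with 1 library left out (783 without null replicate 1 and 48 without null replicate 2). Genes called on the 9 lists numbered 2 with DESeq2, 2 with the likelihood ratio test (PLK2 and BTG2 each time), and 0 to 10 with 1 library left out. The median of MuvB, MYB, E2F and RB factors was 0.08 as reported and -0.0085 to 0.16 with 1 library left out, the lowest, a reversal, without IMP1-OE replicate 1. The causes were not tested. With the replicate number as a block 15 genes (0.124%) were called, none of them among the 10 genes. The deviations of same-numbered libraries correlated at 0.15, and with 2 pairs the libraries share only a number. Where a library was left out, the lone library of a group was assumed to vary like the other group. Only 2 libraries per group limit the precision, and the counts of the 10 genes ran from 261 to 6177 per library.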
